A study of Rattus norvegicus with 4 samples.

Results

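The 10 genes described here are core components and direct outputs of the circadian clock, taken by their symbols from the gene rows shared by all 4 deposited matrices: Ciart, Nr1d1, Nr1d2, Per1, Per2, Per3, Dbp, Tef, Arntl and Clock. They are 10 of 30560 gene rows, and each stood on a single row. Expression was measured by droplet single-cell RNA sequencing of the abdominal midline fascia of rats, a sheet of connective tissue that the study treats as the acupoint. The acupuncture group holds 2 libraries, from rats given Salmonella to induce dysentery and then treated with acupuncture, and the dysentery group holds 2 libraries, from rats with the same Salmonella dysentery and no acupuncture, so every animal was infected and no uninfected rat was compared. Strain, sex, age and the hour of collection are not given in the sources used here. The groups follow the library titles, descriptions and design text, while the treatment field of all 4 libraries names the opposite group: each sign below would turn if that field were the right one. Whether the 2 libraries of a group came from different rats is not stated, and the p-values reflect the scatter between libraries, which may be technical.

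The circadian clock is a loop of transcription that cells of nearly every tissue run for themselves, fibroblasts and macrophages included. Its positive arm is the pair CLOCK and BMAL1 (the protein of Arntl), which binds E-box motifs and drives the genes of the negative arm. These are the Period genes, whose proteins inhibit CLOCK and BMAL1 together with the cryptochromes, the nuclear receptors REV-ERB alpha and beta (Nr1d1 and Nr1d2), which repress Arntl, and Ciart, a repressor of CLOCK and BMAL1. Dbp and Tef encode PAR bZIP activators that bind D-box motifs and carry the rhythm to output genes. Transcripts of the arms peak at different hours of the day.

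The libraries kept 7704 and 8567 cells with acupuncture, and 6310 and 9816 cells with dysentery alone, at median depths from 6643 to 9167 UMIs (unique molecular identifiers, each a counted molecule) per cell. Any pair of libraries shared 19 to 32 cell barcodes, at most 0.358% of those of a library. Cells were assigned to classes by marker genes that include no clock gene, and a class name rests on those markers alone, so that macrophage means macrophage-like. UMIs were summed per library and class, levels are given as CPM (UMIs of a gene per 1000000 UMIs of that sum), and the 8 classes that reached 30 cells in each of the 4 libraries were tested. Fibroblasts and telocytes (interstitial cells with long processes that share Cd34 and Pdgfra with fibroblasts) formed 1 class, with 3895 and 3640 cells with acupuncture and 2718 and 5916 with dysentery. Macrophages numbered 1793 and 2251 with acupuncture and 503 and 823 with dysentery. Macrophages, fibroblasts and dendritic cells were spread differently over clusters in the groups: the macrophage cluster led by Gdf15 and Il10 held 960 and 1566 gated cells with acupuncture and 3 and 17 with dysentery, and the fibroblast cluster led by Ptx3 and Il6 held 592 and 606 with acupuncture and 0 and 0 with dysentery. The fibroblast cluster led by Il34 and Olfml2a went the other way, with 18 and 19 gated cells with acupuncture and 524 and 3070 with dysentery, and the gated dendritic cells of the cluster led by Ccl17 and Rel numbered 56 and 157 with acupuncture and 21 and 18 with dysentery. Those of the cluster led by Cst7 and Slamf7 numbered 4 and 8 with acupuncture and 66 and 32 with dysentery. Natural killer and innate lymphoid cells were spread unevenly too, and their values were not taken within single clusters. Their cluster led by Xcl1 and Klrb1a held 62 and 85 gated cells with acupuncture and 163 and 53 with dysentery. That led by Gzma and Prf1 held 22 and 12 with acupuncture and 139 and 77 with dysentery. That led by Xcl1 and Mcpt9 held 6 and 0 with acupuncture and 94 and 1 with dysentery. Of the gated monocytes, 46 and 103 with acupuncture and 70 and 55 with dysentery lay in an unnamed cluster led by Gata3 and Ltb. Of the monocyte markers, only Ccr2 and S100a4 stood out in that cluster, too few for it to be named. The cluster led by Fcnb and Ly6c held 134 and 105 with acupuncture and 227 and 67 with dysentery, so monocyte values mix these clusters. Because these are 3' tags, levels are compared between samples and classes for the same gene, and not between genes.

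Of 59 tests of a clock gene in a class, 6 passed an adjusted p of 0.05, and all 6 were higher with acupuncture. They were Ciart in fibroblasts, macrophages and dendritic cells, Nr1d1 and Dbp in macrophages, and Nr1d2 in dendritic cells. Thus 3 of 10 genes passed in macrophages, where 3.24% of all genes tested did (2.13% higher with acupuncture), 1 of 10 in fibroblasts, where 2.5% did (1.77% higher), and 2 of 8 tested in dendritic cells, where 8.97% did (6.44% higher). None passed in monocytes, neutrophils, natural killer and innate lymphoid (NK/ILC) cells, T cells or vascular endothelium in edgeR's quasi-likelihood test, where 0.0721%, 0.282%, 0.269%, 0.855% and 2.24% of all genes passed (0.012%, 0.0564%, 0.174%, 0.733% and 1.41% higher with acupuncture). DESeq2 also called none of them in these classes, where 0.51%, 0.169%, 0.776%, 1.51% and 1.07% of the genes given an adjusted p passed. Its own filter left some genes without an adjusted p, Per2, Per3, Tef and Clock in monocytes among them, so those could not be called. At an unadjusted p under 0.05 in edgeR's test the clock genes numbered 1 of 8 tested, 0 of 2, 3 of 5, 3 of 9 and 2 of 7 in these classes, against 6.57%, 10.7%, 12.6%, 11.1% and 15.6% of all genes. The log2 difference was positive in 49 of the 59 tests. Both acupuncture libraries lay above both dysentery libraries for 7 genes in macrophages (14.6% of all genes), 5 in fibroblasts (24.2%), 3 in dendritic cells (22.6%), 4 in monocytes (21.4%), 3 in NK/ILC cells (27.8%), 4 in T cells (19.0%), 3 in endothelium (30.5%) and 0 in neutrophils (32.0%). They lay below for 2 genes in macrophages (42.6%), 2 in fibroblasts (24.8%), 1 in dendritic cells (30%) and 0 in the other 5 classes (13.3% to 23.3%). Its median was 0.71 over the 10 genes in macrophages, against 0.0052 over all genes tested there, and 0.24 in fibroblasts, against -0.0049 over all genes. Scaling by raw totals in place of TMM factors shifted the median log2 difference of all genes by -0.17 in macrophages, 0.16 in neutrophils, 0.11 in endothelium and less than 0.1 in the other classes, and the 6 calls passed under it too.

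**Figure D1:**
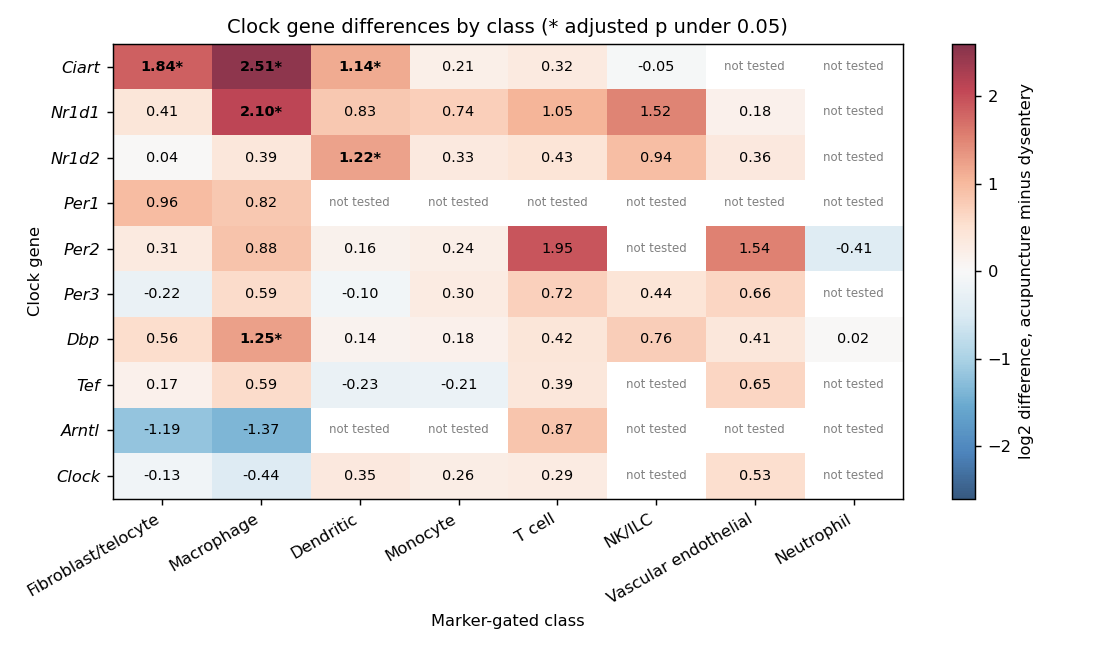
Log2 difference (acupuncture minus dysentery) of each clock gene (rows) in each class (columns), from the fit over all genes of the class; red is higher and blue lower with acupuncture, and a star marks an adjusted p under 0.05. The 6 starred values lie between 1.14 and 2.51, and the negative values include Arntl in fibroblasts (-1.19) and macrophages (-1.37).

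Ciart (ENSRNOG00000042717), which encodes a repressor that binds BMAL1, was higher with acupuncture in macrophages, fibroblasts and dendritic cells. In macrophages its level was 84.6 and 91.0 CPM with acupuncture, against 18.9 and 15.9 CPM with dysentery. In fibroblasts it was 15.1 and 16.5 CPM with acupuncture, against 4.41 and 4.49 CPM with dysentery, and in dendritic cells 71.8 and 71.0 CPM against 36.0 and 30.8 CPM. In all 3 classes both acupuncture libraries lay above both dysentery libraries, by a margin wider than the gap between libraries of a group. The fitted difference was 5.70-fold in macrophages (log2 2.51 ± 0.15 SE, adjusted p = 0.00201), 3.58-fold in fibroblasts (log2 1.84 ± 0.16, adjusted p = 0.00916) and 2.20-fold in dendritic cells (log2 1.14 ± 0.19, adjusted p = 0.00164).

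Ciart did not pass in T cells, NK/ILC cells or monocytes, and was too sparse to test in endothelium and neutrophils. T cells held 57.2 and 53.3 CPM with acupuncture and 53.9 and 35.6 CPM with dysentery, so the groups overlapped (log2 0.32 ± 0.24, adjusted p = 0.685). NK/ILC cells also overlapped, at 33.2 and 53.8 CPM with acupuncture and 43.6 and 41.2 CPM with dysentery (log2 -0.05 ± 0.27, adjusted p = 0.971). Monocytes held 28.9 and 24.4 CPM with acupuncture against 24.1 and 19.2 CPM with dysentery, a gap smaller than the spread within a group (log2 0.21 ± 0.29, adjusted p = 0.928). The change in T cells was smaller than that in macrophages in a test of the difference itself (T cell minus macrophage, log2 -2.15 ± 0.26, adjusted p = 0.00376), a test added after the data were seen, in which 0.635% of all genes passed. Set against fibroblasts, the T cell change missed the threshold (T cell minus fibroblast, log2 -1.48 ± 0.30, adjusted p = 0.0601; 0.432% of all genes passed).

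The stretch before the annotated start of Ciart is shown because it is the densest in E-boxes among the 10 genes. The windows come from the RefSeq table of assembly GRCr8, which gives 250 bases before to 50 bases after each start; all 10 genes had a window, 12 windows in all. Both strands were searched for the E-box CACGTG, which reads the same on either strand, the variant CACGTT, the D-box TTATGTAA or TTACGTAA, the REV-ERB and ROR core TAGGTCA or TGGGTCA, and the cAMP element TGACGTCA. The Ciart window held 3 E-boxes, starting 93, 35 and 21 bases before the start. Of 33469 windows of this length, 6.42% held at least 1 E-box and 19 windows (0.0568%) held 3 or more. Capitals mark the motifs, and the 250 bases before the start (GRCr8, chr2:186112247-186112496, minus strand) read 5′ to 3′:
Ciart: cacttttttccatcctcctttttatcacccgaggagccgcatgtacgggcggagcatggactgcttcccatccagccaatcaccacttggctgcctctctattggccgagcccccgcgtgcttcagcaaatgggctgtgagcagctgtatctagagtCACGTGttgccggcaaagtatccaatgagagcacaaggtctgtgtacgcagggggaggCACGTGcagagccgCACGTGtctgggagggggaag

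Nr1d1 (ENSRNOG00000009329), the gene of REV-ERB alpha, was higher with acupuncture in macrophages. It measured 163 and 172 CPM there with acupuncture, against 47.7 and 40.7 CPM with dysentery, a 4.28-fold difference (log2 2.10 ± 0.13, adjusted p = 0.00303) with the groups well apart. In fibroblasts the groups were also apart but closer, at 149 and 172 CPM with acupuncture against 122 and 123 CPM with dysentery, and the difference did not pass (log2 0.41 ± 0.15, adjusted p = 0.208). T cells held 69.2 and 83.9 CPM with acupuncture against 35.8 and 40.4 CPM with dysentery (log2 1.051 ± 0.20, adjusted p = 0.0559). NK/ILC cells held 61.4 and 87.4 CPM with acupuncture against 28.3 and 16.96 CPM with dysentery (log2 1.52 ± 0.30, adjusted p = 0.0849). In both lymphoid classes the 2 acupuncture libraries were the higher ones, yet neither difference passed. The T cell difference did pass without acupuncture replicate 1 (adjusted p = 0.00353), dysentery replicate 1 (adjusted p = 0.0114) or dysentery replicate 2 (adjusted p = 0.00191). Monocytes (log2 0.74 ± 0.30, adjusted p = 0.740), dendritic cells (log2 0.83 ± 0.52, adjusted p = 0.388, but 0.0355 with cells classed by cluster) and endothelium (log2 0.18 ± 0.26, adjusted p = 0.797) did not pass either.

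Nr1d2 (ENSRNOG00000046912), the gene of REV-ERB beta, was higher with acupuncture in dendritic cells. It was 29.5 and 29.0 CPM there with acupuncture, against 11.6 and 14.98 CPM with dysentery, from 30 and 87 UMIs with acupuncture and 20 and 17 UMIs with dysentery. The groups were apart and the difference passed (2.33-fold, log2 1.22 ± 0.26, adjusted p = 0.00984), but not with DESeq2 (adjusted p = 0.228), without dysentery replicate 1 (adjusted p = 0.171) or with cells classed by cluster (adjusted p = 0.0515). In fibroblasts Nr1d2 was level, at 101 and 85.7 CPM with acupuncture and 90.2 and 92.4 CPM with dysentery (log2 0.04 ± 0.10, adjusted p = 0.865). In macrophages it was 54.2 and 57.6 CPM with acupuncture against 42.0 and 53.4 CPM with dysentery (log2 0.39 ± 0.15, adjusted p = 0.202), where the lower acupuncture library lay just above the higher dysentery library. Within the macrophage cluster led by Spp1 and Ccl12 taken alone, Nr1d2 did pass (log2 0.85 ± 0.18, adjusted p = 0.0221).

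Both annotated starts of Nr1d1 carried an E-box type motif, shown because Nr1d1 is a textbook target of CLOCK and BMAL1. At the upstream start a CACGTT, lying on the other strand and so read as AACGTG, began 174 bases before it, and 4.83% of windows held that variant. At the second start a CACGTG began 191 bases before it. Capitals mark the motifs in the stretches chr10:84231813-84232062 and chr10:84229455-84229704 (GRCr8, minus strand). No searched motif was found in the Nr1d2 window.
Nr1d1, upstream start: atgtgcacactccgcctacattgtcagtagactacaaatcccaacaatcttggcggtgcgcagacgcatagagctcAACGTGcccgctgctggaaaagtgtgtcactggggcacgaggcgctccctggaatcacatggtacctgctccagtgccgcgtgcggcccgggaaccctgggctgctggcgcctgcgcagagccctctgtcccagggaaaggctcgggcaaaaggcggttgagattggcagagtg
Nr1d1, second start: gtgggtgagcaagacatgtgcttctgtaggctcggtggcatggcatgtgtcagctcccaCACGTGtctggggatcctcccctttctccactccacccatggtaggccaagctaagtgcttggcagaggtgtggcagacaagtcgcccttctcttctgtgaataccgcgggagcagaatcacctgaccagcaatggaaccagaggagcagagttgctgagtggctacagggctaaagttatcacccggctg

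**Figure D2:**
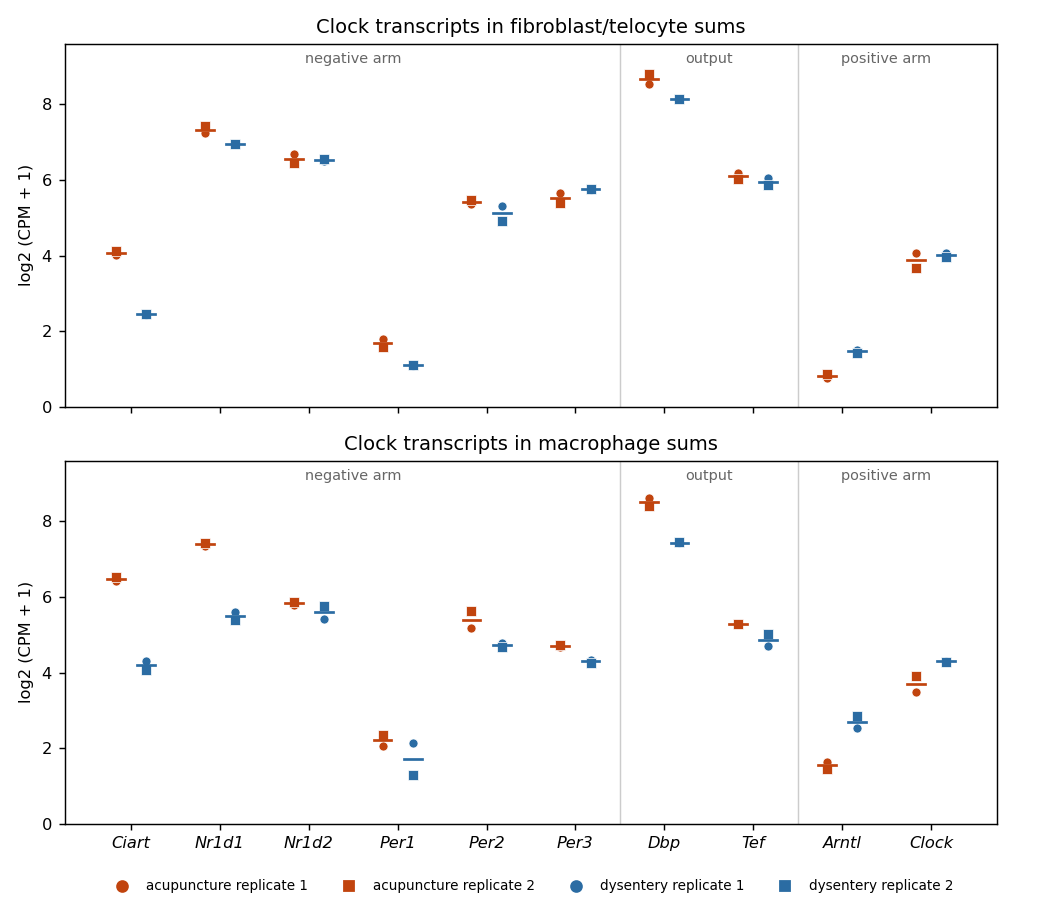
Level of each clock gene as log2 (CPM + 1) in fibroblast/telocyte sums (top) and macrophage sums (bottom), with 1 point per library, acupuncture in orange-red on the left and dysentery in blue on the right of each gene; bars are group means of 2 libraries. Ciart stands apart in both panels, while Nr1d1 and Dbp are separated more widely in macrophages and Arntl runs the other way.

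The Period genes passed in none of the classes where they were tested: fibroblasts and macrophages for Per1, all but NK/ILC cells for Per2 and all but neutrophils for Per3. Per2 was closest in macrophages, with 35.4 and 48.1 CPM with acupuncture against 26.5 and 24.6 CPM with dysentery (log2 0.88 ± 0.19, adjusted p = 0.0588), and it passed without acupuncture replicate 1 (adjusted p = 0.0440) or dysentery replicate 1 (adjusted p = 0.0494). In fibroblasts Per2 was 40.1 and 43.4 CPM with acupuncture and 39.0 and 29.2 CPM with dysentery (log2 0.31 ± 0.16, adjusted p = 0.328), so that the higher dysentery library lay next to the acupuncture ones. A pair of small classes gave larger fitted values from few molecules. T cells held 15 and 16 Per2 UMIs with acupuncture and 4 and 4 with dysentery (log2 1.95 ± 0.50, adjusted p = 0.138), and endothelium 25 and 29 UMIs with acupuncture and 3 and 6 with dysentery (log2 1.54 ± 0.49, adjusted p = 0.124).

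Per3 had opposite signs in the sums of the largest classes. In macrophages it was 24.6 and 25.4 CPM with acupuncture against 19.2 and 18.2 CPM with dysentery (log2 0.59 ± 0.15, adjusted p = 0.0889). In fibroblasts it was 49.5 and 40.6 CPM with acupuncture, below the 52.7 and 52.9 CPM with dysentery (log2 -0.22 ± 0.10, adjusted p = 0.288). The groups did not overlap in either class, but neither difference passed, nor did the difference between classes (fibroblast minus macrophage, log2 -0.84 ± 0.20, adjusted p = 0.0542, and 0.0480 without dysentery replicate 1). Within single fibroblast clusters the Per3 order was not kept. In cluster 11 it was 86.7 and 102 CPM with acupuncture against 71.5 and 71.3 CPM with dysentery. In cluster 13 it was 68.5 and 72.5 CPM with acupuncture against 59.9 and 60.8 CPM with dysentery, and in clusters 5, 6 and 8 the groups overlapped. Per1, an immediate target of glucocorticoid and cAMP signals, was sparse. Fibroblasts held 76 and 72 UMIs (2.48 and 1.97 CPM) with acupuncture and 23 and 47 UMIs (1.11 and 1.16 CPM) with dysentery (log2 0.96 ± 0.29, adjusted p = 0.158), and in macrophages the groups overlapped (log2 0.82 ± 0.44, adjusted p = 0.351).

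The Per2 window is shown for its pair of clock motifs: a CACGTT began 62 bases and a D-box TTATGTAA 192 bases before the start, the D-box form being present in 1.01% of windows. Capitals mark both in the stretch chr9:99496994-99497243 (GRCr8, minus strand). None of the searched motifs lay in the Per1 and Per3 windows.
Per2: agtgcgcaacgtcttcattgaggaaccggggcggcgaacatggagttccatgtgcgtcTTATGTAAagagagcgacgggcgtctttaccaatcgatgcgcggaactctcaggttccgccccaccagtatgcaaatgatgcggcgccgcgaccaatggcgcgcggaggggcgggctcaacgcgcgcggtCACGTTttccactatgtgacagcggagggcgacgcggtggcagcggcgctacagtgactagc

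Dbp (ENSRNOG00000021027), whose protein activates D-box genes, was higher with acupuncture in macrophages. It was 394 and 338 CPM there with acupuncture, against 171 and 174 CPM with dysentery, 2.38-fold (log2 1.25 ± 0.13, adjusted p = 0.0104). In fibroblasts it was 374 and 448 CPM with acupuncture against 280 and 284 CPM with dysentery, which were apart as well but did not pass (log2 0.56 ± 0.17, adjusted p = 0.154). Dendritic cells held 66.9 and 67.0 CPM with acupuncture and 65.1 and 61.7 CPM with dysentery, nearly level (log2 0.14 ± 0.17, adjusted p = 0.702). Tef, its PAR bZIP relative, was 37.8 and 38.0 CPM with acupuncture against 25.1 and 31.4 CPM with dysentery in macrophages (log2 0.59 ± 0.15, adjusted p = 0.0957). In fibroblasts the Tef groups overlapped, at 71.7 and 63.8 CPM with acupuncture and 64.9 and 56.9 CPM with dysentery (log2 0.17 ± 0.10, adjusted p = 0.389). The Tef window held 1 CACGTG, 198 bases before the start, and the Dbp window held none of the motifs.

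In the positive arm, Arntl was lower with acupuncture in fibroblasts and macrophages without passing the test. Macrophages held 31 and 40 Arntl UMIs (2.09 and 1.75 CPM) with acupuncture and 17 and 30 UMIs (4.80 and 6.19 CPM) with dysentery (log2 -1.37 ± 0.32, adjusted p = 0.0768). Fibroblasts held 21 and 30 UMIs (0.685 and 0.819 CPM) with acupuncture and 38 and 67 UMIs (1.84 and 1.66 CPM) with dysentery (log2 -1.19 ± 0.34, adjusted p = 0.145). In both classes the acupuncture libraries were the lower ones with no overlap. T cells had the opposite order, at 12.04 and 11.9 CPM with acupuncture against 7.56 and 5.58 CPM with dysentery (log2 0.87 ± 0.37, adjusted p = 0.441). Clock, the partner of Arntl, was 10.3 and 13.9 CPM with acupuncture against 18.6 and 18.6 CPM with dysentery in macrophages (log2 -0.44 ± 0.20, adjusted p = 0.272). In fibroblasts it was 15.9 and 11.8 CPM with acupuncture and 15.8 and 14.7 CPM with dysentery, with overlap (log2 -0.13 ± 0.14, adjusted p = 0.627).

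The Arntl window (listed by RefSeq under Bmal1) is shown because the core that REV-ERB and ROR receptors bind, TAGGTCA, began 16 bases before its start. That core or its TGGGTCA form was present in 6.6% of all windows. Capitals mark it in the stretch chr1:176766078-176766327 (GRCr8, plus strand). No searched motif lay in either Clock window.
Arntl: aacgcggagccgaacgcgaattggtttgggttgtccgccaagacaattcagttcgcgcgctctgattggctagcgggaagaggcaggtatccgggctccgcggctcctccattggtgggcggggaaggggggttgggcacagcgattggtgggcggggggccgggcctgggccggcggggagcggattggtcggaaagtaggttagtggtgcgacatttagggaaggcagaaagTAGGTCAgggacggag

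Setting the arms side by side, the mean log2 (CPM + 1) of Arntl and Clock minus that of the 6 negative-arm genes was lower with acupuncture in macrophages and fibroblasts. Macrophages gave -2.69 and -2.74 with acupuncture, against -1.02 and -0.67 with dysentery. Fibroblasts gave -2.71 and -2.80 with acupuncture, against -1.89 and -1.93 with dysentery. The groups lay apart in both, by -1.87 in macrophages and -0.84 in fibroblasts, gaps larger than the spread within either group. In macrophages the groups lay apart in each arm. The negative arm averaged 5.33 ± 0.12 with acupuncture and 4.34 ± 0.14 with dysentery, and the positive arm 2.62 ± 0.08 with acupuncture and 3.49 ± 0.11 with dysentery (SD, 2 libraries each). Neither Arntl nor Clock passed in macrophages, and within the cluster led by Spp1 and Ccl12 the groups overlapped for both. Dendritic cells gave -1.63 and -1.08 with acupuncture and -0.24 and -0.74 with dysentery, and NK/ILC cells -1.21 and -0.95 with acupuncture and -0.86 and -0.32 with dysentery. T cells gave -0.78 and -0.76 with acupuncture and -0.68 and -0.18 with dysentery, and there both arms were higher with acupuncture. Monocytes, neutrophils and endothelium overlapped. This score carries no test.

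**Figure D3:**
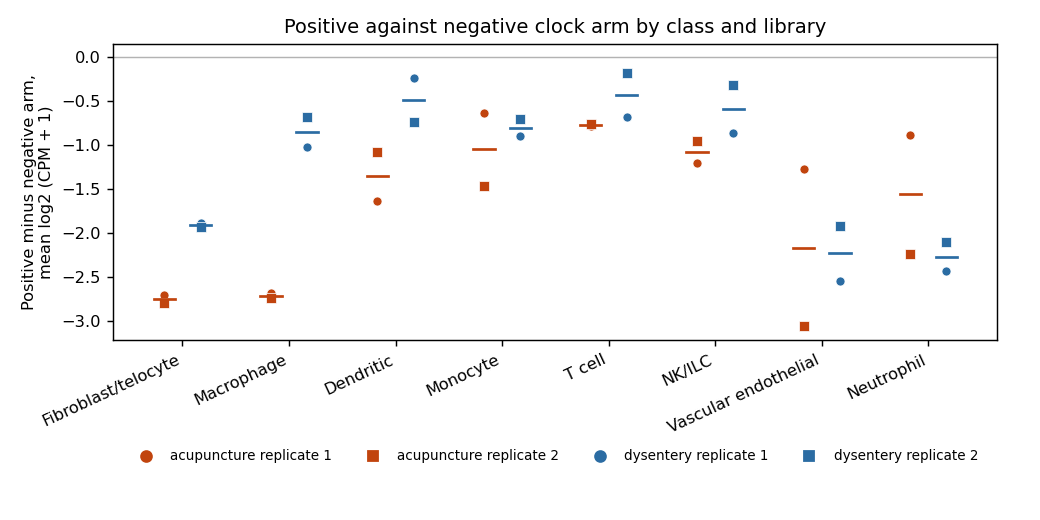
Positive minus negative arm of the clock, as a difference of mean log2 (CPM + 1), in each class, with 1 point per library, acupuncture in orange-red on the left and dysentery in blue on the right; bars are means of 2 libraries. Acupuncture libraries lie between -2.80 and -2.69 in fibroblasts and macrophages, below the dysentery libraries, while monocytes, endothelium and neutrophils overlap.

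The macrophage and fibroblast responses were compared in 1 model with library as a block. The test of the difference in change passed for 1 of the 10 genes, Nr1d1, against 2.09% of all genes. Its change was smaller in fibroblasts than in macrophages (fibroblast minus macrophage, log2 -1.73 ± 0.21, adjusted p = 0.00252), a call that was lost without acupuncture replicate 1 (adjusted p = 0.105) or 2 (adjusted p = 0.108). The difference was -0.71 ± 0.22 for Ciart (adjusted p = 0.158), -0.72 ± 0.23 for Dbp (adjusted p = 0.165) and -0.57 ± 0.20 for Per2 (adjusted p = 0.220), and 7 of the 10 values were negative. For Arntl it was 0.17 ± 0.55 (adjusted p = 0.954).

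Levels over all 4 libraries also differed by class for 6 of the 10 genes, close to the 67.1% of all genes that did. Ciart was lower in fibroblasts than in macrophages (log2 -2.30 ± 0.17, adjusted p = 3.68e-06), as were Arntl (log2 -1.52 ± 0.25, adjusted p = 0.00078) and Per1 (log2 -0.86 ± 0.27, adjusted p = 0.0207, but 0.133 without acupuncture replicate 2). Per3 (log2 1.10 ± 0.18, adjusted p = 0.000591), Tef (log2 0.92 ± 0.13, adjusted p = 0.000296) and Nr1d2 (log2 0.80 ± 0.12, adjusted p = 0.000387) were higher in fibroblasts.

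Across the 8 classes, Ciart averaged 52.6 ± 40.7 CPM in macrophages, 52.4 ± 22.0 in dendritic cells, 50.0 ± 9.77 in T cells and 42.9 ± 8.48 in NK/ILC cells (SD, 4 libraries). The ranges of these classes overlapped, and those of NK/ILC cells and of monocytes, at 24.1 ± 3.94 CPM, did not. The place of macrophages turned with the group: with acupuncture they held the highest Ciart levels of the 8 classes (84.6 and 91.0 CPM), and with dysentery (18.9 and 15.9 CPM) they lay below every dendritic, T, NK/ILC and monocyte library. Endothelium, fibroblasts and neutrophils came last, between 9.92 and 12.9 CPM, with overlapping ranges. Nr1d1 had another order, with 142 ± 23.9 CPM in fibroblasts, 106 ± 71.5 in macrophages and 93.7 ± 21.6 in endothelium, overlapping in range, and 8.09 ± 4.37 CPM in dendritic cells. Arntl was highest in NK/ILC cells at 13.1 ± 3.60 CPM and T cells at 9.27 ± 3.22 CPM, which overlapped. Per2, Per3, Nr1d2, Dbp and Tef had their highest means in fibroblasts, and only for Nr1d2 were the ranges of fibroblasts and the next class, macrophages, apart. Of Clock, means from 7.19 to 16.6 CPM spanned 7 classes whose neighbours overlapped. In neutrophils 8 of the 10 genes were too sparse to test.

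**Figure D4:**
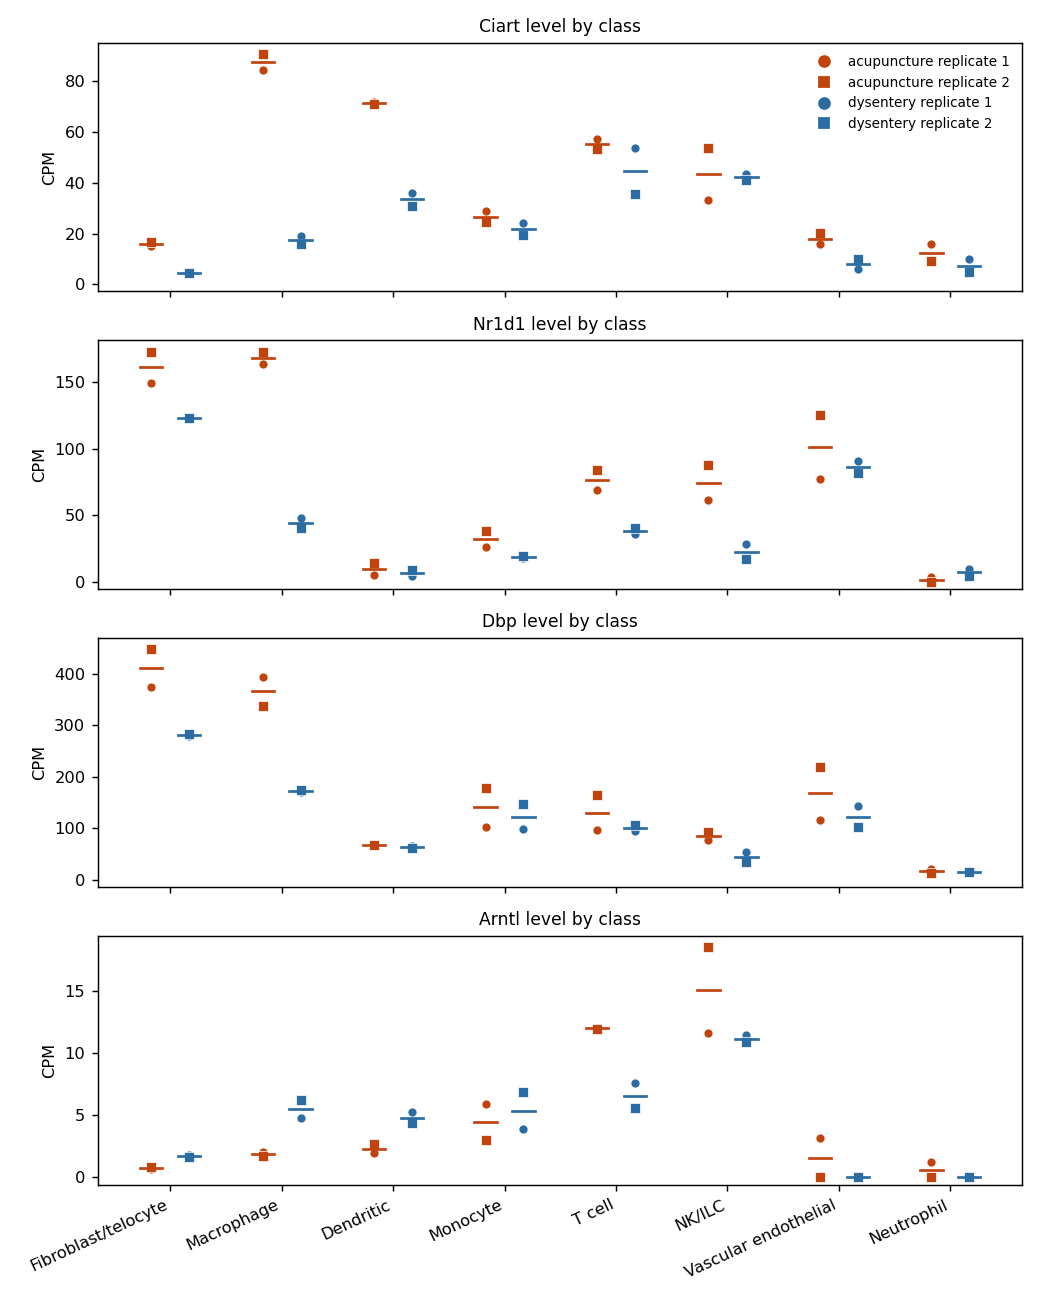
Levels in CPM of Ciart, Nr1d1, Dbp and Arntl (panels) in each class, with 1 point per library, acupuncture in orange-red on the left and dysentery in blue on the right; bars are means of 2 libraries. Ciart and Nr1d1 separate widely in macrophages, and Arntl is lower with acupuncture in fibroblasts, macrophages and dendritic cells and higher in T cells. Arntl passed in no class where it was tested, and it was too sparse to test in dendritic cells (24 UMIs over the 4 libraries).

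Since clusters differ in size between the groups, the values were also taken within single clusters, in an analysis added after the data were seen. In the macrophage cluster led by Spp1 and Ccl12 (cluster 0), Ciart was 116 and 110 CPM with acupuncture against 26.8 and 23.7 CPM with dysentery (log2 2.27 ± 0.18, adjusted p = 9.82e-05), and Nr1d1 was 147 and 147 CPM with acupuncture against 39.8 and 27.4 CPM with dysentery (log2 2.23 ± 0.21, adjusted p = 0.000212). In that led by Cd209f and Rnase2 (cluster 4), Ciart was 41.1 and 52.6 CPM with acupuncture against 4.98 and 8.19 CPM with dysentery (log2 2.81 ± 0.26, adjusted p = 9.76e-05), and Nr1d1 was 81.3 and 103 CPM with acupuncture against 57.3 and 46.2 CPM with dysentery (log2 0.95 ± 0.16, adjusted p = 0.00538). Dbp passed in both clusters too (log2 1.04 ± 0.18, adjusted p = 0.00748, in cluster 0 and 1.15 ± 0.11, adjusted p = 0.000126, in cluster 4). Arntl passed in cluster 4, lower with acupuncture, from 7 and 1 UMIs with acupuncture and 10 and 18 with dysentery (log2 -2.02 ± 0.50, adjusted p = 0.0363). In cluster 0 Arntl was too sparse to test, and the groups overlapped. It was 5.92 and 1.34 CPM there with acupuncture and 2.89 and 5.18 CPM with dysentery. Nr1d2 passed in cluster 0 (log2 0.85 ± 0.18, adjusted p = 0.0221) and not in cluster 4 (log2 0.20 ± 0.18, adjusted p = 0.572). Of all genes, 7.08% passed in cluster 0 and 5.57% in cluster 4, against 3.24% over the class. Ciart, Nr1d1 and Dbp thus differed within both clusters, with a smaller log2 value for Nr1d1 in cluster 4 than over the whole class (2.10), a gap that was not tested.

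In fibroblasts, Ciart was the higher with acupuncture in each of 5 clusters large enough to compare, but passed in none of the 4 where it could be tested (log2 1.55 to 2.45, adjusted p 0.0767 to 0.486). Few genes of any kind passed there: 0.348%, 0.256%, 0.311% and 0.624% of all genes in clusters 6, 8, 11 and 13, against 2.5% over the class. In cluster 13, led by Igfbp3 and Obp3, with 399 and 303 gated cells with acupuncture and 410 and 438 with dysentery, Ciart was 17.8 and 19.6 CPM with acupuncture against 6.53 and 2.52 CPM with dysentery. In cluster 5 the sums held 7 and 23 Ciart UMIs with acupuncture and 2 and 4 with dysentery, and the lower acupuncture value (4.92 CPM) lay next to the higher dysentery value (4.83 CPM).

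**Figure D5:**
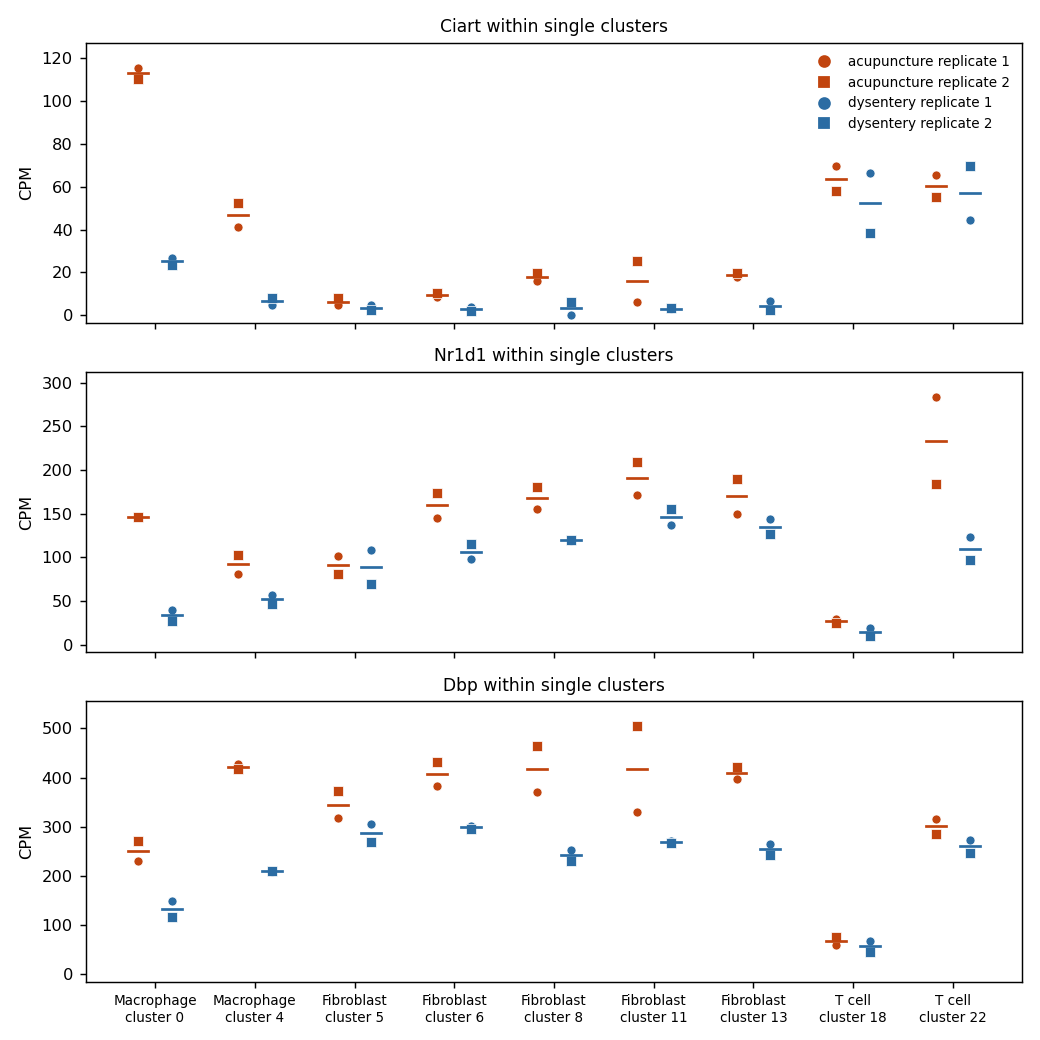
Levels in CPM of Ciart, Nr1d1 and Dbp within single clusters of macrophages, fibroblasts and T cells, with 1 point per library, acupuncture in orange-red on the left and dysentery in blue on the right; bars are means of 2 libraries. All 3 genes are apart in both macrophage clusters, and Ciart overlaps in both T cell clusters.

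Of 24 other genes of the clock and its outputs, 23 had a row. In fibroblasts 6 of 21 tested passed, 5 higher and 1 lower with acupuncture, against 2.5% of all genes (1.77% higher and 0.736% lower). The largest was Nfil3, the repressor that competes with Dbp and Tef for D-boxes, at 48.3 and 46.1 CPM with acupuncture against 4.60 and 1.66 CPM with dysentery (log2 4.03 ± 0.40, adjusted p = 0.0137). Bhlhe40 and Bhlhe41, the DEC repressors that compete at E-boxes, rose (log2 1.27 ± 0.12 and 1.00 ± 0.12), as did Noct, the gene of nocturnin (2.14 ± 0.22), and the cell cycle kinase gene Wee1 (0.63 ± 0.10). Npas2, a paralog of Clock, fell, with 2.45 and 1.97 CPM with acupuncture against 5.38 and 5.85 CPM with dysentery (log2 -1.35 ± 0.20, adjusted p = 0.0376).

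In macrophages 4 of 17 tested passed, all higher with acupuncture (adjusted p 0.0177 to 0.0474), against 3.24% of all genes (2.13% higher). They were Nfil3 (log2 3.43 ± 0.44), Cry2, the cryptochrome gene (0.76 ± 0.14), Wee1 (1.06 ± 0.20) and Nampt (0.89 ± 0.16), which encodes an enzyme of NAD synthesis. Nfil3 also rose in dendritic cells (log2 2.71 ± 0.20) and T cells (2.55 ± 0.27), as did Bhlhe40 (2.05 ± 0.15 and 0.91 ± 0.15). With Noct, 3 of 15 genes passed in dendritic cells (8.97% of all genes), and 2 of 16 passed in T cells (0.855%). Cry1 passed in none of these classes, with log2 0.17 ± 0.18 in fibroblasts and 0.16 ± 0.29 in macrophages. Rora, a ROR activator of Arntl, had log2 0.07 ± 0.10 in fibroblasts and -0.16 ± 0.42 in macrophages, and Hlf, the third PAR bZIP gene, 0.64 ± 0.15 in fibroblasts (adjusted p = 0.0989).

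Several gene groups moved beside the clock genes, and their part in the results was not tested. Of all genes tested, 2.13% passed as higher with acupuncture in macrophages, 1.77% in fibroblasts and 6.44% in dendritic cells. Immediate early genes rose in 9 of 21 tested members in macrophages, with summed levels of 30259.6 and 34185 CPM with acupuncture against 16039.6 and 11433 CPM with dysentery. They rose in 12 of 21 in fibroblasts (Atf3, log2 4.52 ± 0.17) and in 20 of 20 in dendritic cells. Genes of the glucocorticoid response rose in 6 of 14 in macrophages (Klf9, log2 2.11 ± 0.15), 4 of 14 in fibroblasts, where 3 fell (Fkbp5 rose, log2 2.28 ± 0.20, and Pdk4 fell, -1.45 ± 0.17), and 8 of 11 in dendritic cells. A cAMP response list, which includes Per1 and Nfil3, rose in 5 of 11 in macrophages, 5 of 12 in fibroblasts and 7 of 8 in dendritic cells. Heat shock genes rose in 6 of 10 in fibroblasts, 3 of 10 in dendritic cells and 0 of 10 in macrophages. In macrophages they summed to 5592 and 6648 CPM with acupuncture and 5166 and 3468 CPM with dysentery. Tat, a classical glucocorticoid target of liver, was at 0 in all 3 classes. The lists also moved in T cells, where none of the 10 clock genes passed. There 6 of 20 immediate early, 2 of 9 glucocorticoid, 6 of 9 cAMP and 0 of 9 heat shock genes rose (0.733% of all genes). In NK/ILC cells 1 of 9 cAMP genes rose (0.174% of all genes), and in endothelium 1 of 16 immediate early genes (1.41%). In monocytes and neutrophils no gene of these lists passed.

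Markers of other cells differed in the macrophage sums. Monocyte markers summed to 4937 and 5027 CPM with acupuncture against 11853 and 11707 CPM with dysentery, with 5 of 8 lower, and fibroblast markers to 860 and 930.1 CPM against 1633 and 1759 CPM, with 6 of 10 lower. Dendritic markers summed to 17859 and 20948 CPM with acupuncture against 35325 and 28141 CPM with dysentery, with 1 of 11 passing, higher with acupuncture. Macrophage markers themselves summed to 42104 and 37454 CPM with acupuncture and 34923 and 38929.7 CPM with dysentery, with overlap. Eomes, a marker of NK cells, was at 0 in the macrophage sums. The NK/ILC markers together were at 6.59 and 4.41 CPM there with acupuncture and 28.8 and 8.87 CPM with dysentery. In fibroblast sums, macrophage markers were 170 and 148 CPM with acupuncture and 124 and 78.4 CPM with dysentery, with 1 of 12 higher. Neutrophil markers there were 212 and 162 CPM with acupuncture and 495 and 491 CPM with dysentery, with 2 of 5 lower. Dendritic markers there were 1398 and 1219.9 CPM with acupuncture and 2156 and 1957 CPM with dysentery, apart, though none of the 10 tested passed. In dendritic sums, macrophage markers were 771 and 799 CPM with acupuncture and 684 and 710.1 CPM with dysentery, with 4 of 10 higher and 1 lower. Fibroblast markers were 521 and 652 CPM in dendritic sums with acupuncture and 1041 and 811 CPM with dysentery, with 2 of 8 lower. The dendritic markers of the class itself summed to 81469 and 91097 CPM with acupuncture and 97095 and 97815 CPM with dysentery, with 4 of 15 lower. Among all genes tested, 1.11% passed as lower with acupuncture in macrophages, 0.736% in fibroblasts and 2.53% in dendritic cells, and 2.13%, 1.77% and 6.44% as higher. The part of these markers in the results was not tested. In sums of this kind, a change in which cells fill a class and a change in RNA per cell cannot be told apart.

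By Pearson correlation of log2 (CPM + 1) over the 32 sums of library and class, among 2647 genes tested in every class, the genes most like Ciart were Dnajb1 (0.85), Polr1d (0.84), Cfl1 (0.82), NEWGENE_619861 (0.81) and Hnrnpc (0.79). Those most like Arntl were Phkg2 (0.88), Arf6 (0.85), Mbnl1 (0.84), Map2k2 (0.83) and Arpc5l (0.83). These are descriptions over sums that share libraries and depth.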

How the data were processed

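The authors' matrices give unnormalized UMI counts for each gene in each cell, deposited as made with Cell Ranger 6.0.1 per the file headers, and with STAR per the submitters' processing notes, which name mRatBN7.2 and GRCh38.p13 without a role. The deposited barcode and feature lists hold only names (other content than measurements). Cells with at least 300 genes, 500 UMIs and at most 20% mitochondrial UMIs were kept, and the highest Scrublet scores (scanpy 1.11.5) were removed as doublets (355 to 923 cells per library), which left 32397 of 38282 cells.

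A cell entered a class when at least 3 of its markers were detected, its marker score was at least 0.15 and it exceeded the next class 1.5 times; 5798 cells stayed ungated. UMIs were added up within each class of each library and tested with edgeR 4.0.16 (quasi-likelihood, TMM, filterByExpr with a minimum count of 10, Benjamini-Hochberg over all genes of the class at 0.05). The scripts were tested on simulated data. The 33 Leiden clusters (resolution 1) were built without clock genes. Alternatives were raw totals, no filter, DESeq2 1.42.0, other cell filters and gates, a replicate block and leaving out each library. All clock genes were named. Of other clock genes, those that passed in fibroblasts or macrophages and a fixed few were named, of other lists up to 4 by smallest adjusted p, and by likeness 5 genes each for Ciart and Arntl. The genes and lists were chosen with earlier results of these data known. Promoter windows are from RefSeq (GRCr8).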

Additional observations from a re-analysis of the deposited data

Results flagged for a closer look

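Some clock genes differed in their change between classes. For Nr1d1 the change in fibroblasts was below that in macrophages by log2 -1.73 in the test of the difference, and for Ciart the change in T cells was below that in macrophages by log2 -2.15.

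Other genes had both acupuncture libraries on opposite sides of both dysentery libraries in different classes. Arntl was higher with acupuncture in T cells (log2 0.87) and lower in fibroblasts (-1.19) and macrophages (-1.37). In the added test of the difference, T cells minus macrophages gave log2 2.23 ± 0.59 (adjusted p = 0.140) and T cells minus fibroblasts 2.10 ± 0.66 (adjusted p = 0.294), so neither passed. Per3 was higher in macrophages (log2 0.59), T cells (0.72) and endothelium (0.66) and lower in fibroblasts (-0.22), though higher within fibroblast clusters 11 and 13. Its difference between T cells and fibroblasts was log2 0.95 ± 0.36 (adjusted p = 0.443), and that between endothelium and fibroblasts was not tested. Tef was higher in macrophages (log2 0.59) and endothelium (0.65) and lower in dendritic cells (-0.23), and these differences were not tested against each other. None of these Arntl, Per3 and Tef values passed within its class.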

How the results depend on the processing

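The 3 macrophage calls (Ciart, Nr1d1, Dbp) passed in each of 15 alternatives. Ciart in dendritic cells passed in 12 of 12 and Ciart in fibroblasts in 14 of 18, the other 4 being clusters 6, 8, 11 and 13 taken alone. The dendritic alternatives held no stricter gate and no single cluster, because a library had too few cells, so the dendritic calls were not checked within a fixed cluster. The number of clock genes that passed went to 7 of 10 without the filter (9.81% of all genes passed) and 6 of 10 with the stricter gate (6.6%) in macrophages, against 3 (3.24%). In fibroblasts it went to 2 with DESeq2, where Dbp passed (6.47% of all genes), and to 0 within clusters 5, 6, 8, 11 and 13 (0.256% to 0.795% of all genes), against 1. In dendritic cells it went to 1 with DESeq2 (4.66%), against 2, and ranged from 1 to 2 when a library was left out. In NK/ILC cells 1 gene, Nr1d1, passed without the filter (2.43% of all genes), with the stricter gate (1.81%) and with the replicate block (1.47%), against 0. In T cells 1 gene, Nr1d1, passed without the filter (1.59%), with doublets kept (1.44%), a mitochondrial limit of 10% (0.934%), cluster classes (1.72%), cluster 22 alone (5.38%) and the replicate block (3.71%), against 0, and 0 to 2 passed when a library was left out (Nr1d1, and Dbp without acupuncture replicate 1, adjusted p = 0.0459). The difference between fibroblasts and macrophages passed for 3 genes without the filter (Dbp, Per3, Nr1d1; 3.66% of all genes) or with the stricter gate (Ciart, Per3, Nr1d1; 3.37%), against 1, and for 0 to 2 when a library was left out. In the settings without acupuncture replicate 1 or 2, where Nr1d1 lost its call, 5 and 3 of all genes passed.

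The single clusters and the T cell tests of a difference were added after the data were seen. Where a library was left out, the lone library was assumed to vary like the other group. The arm difference was -0.34 in fibroblasts, -1.16 in macrophages and -0.44 in dendritic cells with 10 CPM added, and -1.17 in fibroblasts, -2.10 in macrophages, 1.69 in neutrophils and -0.60 in T cells with 0.1 CPM added. Without Ciart and Per3 it was -0.72 in fibroblasts.

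Some uncalled values changed sign. Nr1d2 in fibroblasts ranged from -0.0172 to 0.0983 when a library was left out and gave -0.40, -0.0532 and -0.24 in clusters 5, 6 and 8. Per3 gave 0.0391, 0.23 and 0.22 in clusters 6, 11 and 13, with the acupuncture libraries above the dysentery libraries in clusters 11 and 13. Clock gave 0.0579, 0.085 and 0.12 in clusters 8, 11 and 13, and 0.34 in macrophage cluster 0. Tef gave -0.33 and -0.15 in clusters 8 and 11, and Per2 -0.21 in cluster 11. Of 34 further values that missed the threshold, 35 of 387 alternative values changed sign and 5 passed: Nr1d1 in dendritic cells with cluster classes (log2 1.20), Dbp in T cells without acupuncture replicate 1, the fibroblast minus macrophage level of Dbp with raw totals (log2 0.43) and, without acupuncture replicate 1, that of Dbp (log2 0.64) and Nr1d1 (log2 1.00). The causes were not tested.

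The number of all genes that passed moved more: 85 to 512 in fibroblasts and 127 to 627 in macrophages when a library was left out, against 330 and 359, with 836 and 570 in DESeq2, 873 and 1622 without the filter, and 278 to 813 against 684 in dendritic cells.

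Libraries of the 2 groups share replicate numbers, but same-numbered libraries had deviations correlated from -0.0186 to 0.295 over classes, and with 2 pairs the numbers do not establish a pairing. Mammary epithelial markers were higher in replicate 1 of both groups. In fibroblast sums, replicates 1 and 2 held 69.5 and 4.34 CPM with acupuncture and 79.5 and 4.61 CPM with dysentery. In macrophage sums they held 68.4 and 4.63 CPM with acupuncture and 126 and 7.43 CPM with dysentery. The cause was not tested. With the replicate block, 637 genes passed in fibroblasts and 166 in macrophages, and no call among the 6 was lost. With 2 libraries a group and few Arntl, Per1 and Per2 molecules outside the largest classes, the values there are imprecise.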

Other observations

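T cells fell into clusters with different Nr1d1 levels. In the cluster led by Il17a, Ccr6 and Il17f (cluster 22), Nr1d1 was 284 and 184 CPM with acupuncture against 123 and 96.4 CPM with dysentery, and the difference passed there (log2 1.01 ± 0.24, adjusted p = 0.0112). In the larger T cell cluster 18, it was 29.3 and 24.7 CPM with acupuncture against 19.4 and 9.58 CPM with dysentery (log2 0.81 ± 0.35, adjusted p = 0.396). Every library was higher in cluster 22 than in cluster 18. Dbp had the same order, at 315 and 286 CPM with acupuncture and 273 and 246 CPM with dysentery in cluster 22, against 58.7 and 76.0 CPM with acupuncture and 67.3 and 45.1 CPM with dysentery in cluster 18. Ciart did not separate the clusters, at 65.8 and 55.5 CPM with acupuncture and 44.6 and 69.8 CPM with dysentery in cluster 22, and 69.7 and 57.9 CPM with acupuncture and 66.5 and 38.3 CPM with dysentery in cluster 18. Whether levels differ between these clusters was not tested.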
